A study of Mus musculus with 24 samples.

Results

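Cerebellum and hippocampus of knockout mice were compared on 8 arrays, 4 per region, out of the 24 arrays of the series. The members were chosen by their labels alone: cerebellum of KO animals 1 to 4 and hippocampus of KO animals 1 to 4. All 19572 array rows that carry a gene (19505 gene symbols) were tested, and the question was which regional differences of wild-type (WT) mice hold in the knockout. The KO mice lack glutamine synthetase in the liver, the enzyme that binds ammonia to glutamate, and are used in the series as mice with raised blood ammonia. The deletion is liver-specific, so the brain cells compared here keep the gene, and its loss cannot be read from these arrays. The WT arrays of the same regions, again 4 per region, served as the reference, and the 8 cortex arrays entered only the estimate of the spread. Tissue was described in the labels as biopsies of each brain region, with no treatment stated. The sources used here do not state strain, age, sex or the promoter that drives the deletion.

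The cerebellum and the hippocampus arise from different parts of the neural tube, the cerebellum from the hindbrain and the hippocampus from the forebrain. The cerebellar cortex holds a very large number of small granule cells, which receive mossy fibres and excite Purkinje cells through parallel fibres, and Purkinje cells are the inhibitory output neurons of that cortex. The hippocampus is built around glutamatergic pyramidal neurons of the CA fields and granule cells of the dentate gyrus, and is known for synaptic plasticity that depends on NMDA receptors and CaM kinase II. In bulk tissue, fewer cells of a type and less RNA per cell cannot be told apart.

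Array medians lay between 8.719 and 8.816 on the log2 scale, and the number of arrays limits the precision. The array of cerebellum KO 3 stood apart: its genes deviated from their group mean with an SD of 0.357, against 0.164 to 0.222 in the other 7 KO arrays of these regions. Its mean over 18 granule cell genes was 12.16, against 13.43 to 13.56 in the other KO cerebella. Its mean over 17 oligodendrocyte genes was 13.89 against 12.25 to 12.33, over 17 brainstem genes 9.25 against 7.37 to 7.81, and over 12 choroid plexus genes 10.30 against 8.13 to 8.16. Main counts and some gene and list results are therefore given with and without this array. The regional labels matched their markers in every KO animal: 9 of 9 cerebellar markers, Gabra6, Cbln1, Cbln3, Fat2, Pcp2, Car8, Calb1, Zic1 and En2, were higher in KO cerebellum and did not overlap between the regions. Of 8 hippocampal markers, 6 (Neurod6, Wfs1, Spink8, Fibcd1, C1ql2 and Dsp) passed the test as lower in cerebellum, and all 8 separated the regions, with Prox1 (-0.89) and Emx1 (-0.47) short of 2-fold. Over all rows 27.6% did not overlap, and 8.12% passed the test at 2-fold in either direction. Gabra6, Cbln1, Cbln3, Fat2, Pcp2 and Car8 are also among the genes of largest difference below. The marker counts are therefore not an independent check of the labels.

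Promoters of the genes furthest apart between the regions are shown first. The windows run from 250 bases before to 50 bases after the RefSeq transcription start (mouse build GRCm38.p6) and are written 5′ to 3′ on the strand of the gene. They are given for the 3 genes of largest difference in each direction that have an entry in the RefSeq table. Gabra6 lies at chr11:42321023-42321322 on the minus strand, Cbln3 at chr14:55884207-55884506 (minus), Pcp2 at chr8:3625498-3625797 (minus), Pde1a at chr2:80129363-80129662 (minus), Lmo7 at chr14:101729678-101729977 (plus) and Tbr1 at chr2:61804203-61804502 (plus). Capitals mark a match, on either strand, to 1 of 4 letter strings: TTGGCA, the core bound by nuclear factor I proteins, CAGATG, an E-box of the kind bound by NeuroD and Atoh1 family factors, the palindromic outline of a MEF2 site, and TGACGTCA, the cyclic AMP response element.
Gabra6: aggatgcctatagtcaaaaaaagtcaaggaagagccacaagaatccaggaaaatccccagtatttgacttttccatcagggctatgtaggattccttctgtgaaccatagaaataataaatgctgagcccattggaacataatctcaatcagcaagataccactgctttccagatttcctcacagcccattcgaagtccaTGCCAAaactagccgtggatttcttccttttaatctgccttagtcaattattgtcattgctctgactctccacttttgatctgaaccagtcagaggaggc
Cbln3: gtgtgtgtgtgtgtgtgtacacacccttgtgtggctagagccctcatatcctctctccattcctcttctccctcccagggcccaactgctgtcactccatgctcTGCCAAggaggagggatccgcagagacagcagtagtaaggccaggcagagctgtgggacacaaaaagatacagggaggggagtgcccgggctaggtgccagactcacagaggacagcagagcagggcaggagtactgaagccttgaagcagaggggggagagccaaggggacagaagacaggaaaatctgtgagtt
Pcp2: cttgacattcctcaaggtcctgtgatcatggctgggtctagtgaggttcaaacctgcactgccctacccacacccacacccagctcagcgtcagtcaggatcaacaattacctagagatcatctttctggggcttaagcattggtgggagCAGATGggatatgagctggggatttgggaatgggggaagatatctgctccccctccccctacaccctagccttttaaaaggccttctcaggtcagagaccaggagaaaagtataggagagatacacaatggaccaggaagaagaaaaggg
Pde1a: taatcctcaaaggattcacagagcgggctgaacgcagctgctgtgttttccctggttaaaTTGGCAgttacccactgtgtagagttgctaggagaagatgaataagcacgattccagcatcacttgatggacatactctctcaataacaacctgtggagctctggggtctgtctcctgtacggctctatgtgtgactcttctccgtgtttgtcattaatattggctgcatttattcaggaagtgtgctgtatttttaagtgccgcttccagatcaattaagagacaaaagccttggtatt
Lmo7: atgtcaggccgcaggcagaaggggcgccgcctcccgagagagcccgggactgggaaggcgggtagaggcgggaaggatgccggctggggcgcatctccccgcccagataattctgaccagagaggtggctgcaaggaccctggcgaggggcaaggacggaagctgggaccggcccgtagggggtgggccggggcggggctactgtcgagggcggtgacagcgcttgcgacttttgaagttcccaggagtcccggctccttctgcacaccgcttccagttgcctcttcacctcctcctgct
Tbr1: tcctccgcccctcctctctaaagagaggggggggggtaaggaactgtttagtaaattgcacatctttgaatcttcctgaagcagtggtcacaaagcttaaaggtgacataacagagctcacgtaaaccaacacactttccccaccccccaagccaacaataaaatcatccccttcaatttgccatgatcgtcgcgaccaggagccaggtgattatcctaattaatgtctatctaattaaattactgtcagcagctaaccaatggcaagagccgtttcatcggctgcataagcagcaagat

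In these windows the TTGGCA core began at position -50 from the start of Gabra6, -146 from that of Cbln3 and -190 from that of Pde1a, read on the opposite strand in the Gabra6 and Cbln3 windows, where it appears as TGCCAA. The E-box CAGATG began at position -100 from the start of Pcp2. The windows of Lmo7 and Tbr1 held none of the 4 strings, and no marked matches overlapped. Pcp2 and Pde1a have 4 promoters each in the table and Lmo7 has 2, of which 1 each is shown. Over all 19143 promoters of 15691 measured genes, 13% held TTGGCA, 14.2% CAGATG, 3.52% the MEF2 outline and 2.31% TGACGTCA. Among 751 promoters of genes higher in KO cerebellum the shares were 14.2%, 14.5%, 3.33% and 2.40%, and among 993 promoters of genes lower there 12%, 13.5%, 2.52% and 1.51%. These shares are counts of letters, and a match is not a binding site.

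The regions of KO mice differed widely. A gene was called when limma, with Benjamini-Hochberg adjustment over all rows, gave an adjusted p under 0.05 and the difference reached 2-fold, that is 1 on the log2 scale. By this rule 1590 rows (8.12%) were called: 683 (3.49%) higher and 907 (4.63%) lower in KO cerebellum. The adjusted p alone was passed by 6129 rows (31.3%), and in 5402 rows (27.6%) the 4 cerebellum values did not overlap the 4 hippocampus values. Of the 1590 called rows, 1561 had the same sign in all 4 animals and 1516 did not overlap. Without cerebellum KO 3 there were 1856 calls (9.48%), 803 higher (4.10%) and 1053 lower (5.38%). A difference below is KO cerebellum minus KO hippocampus of the deposited log2 values, with the standard error (SE) of the fit and n = 4 arrays per region.

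The largest differences upward belonged to granule and Purkinje cell genes. Gabra6, the GABA-A receptor subunit made by granule cells, read 16.56, 16.62, 14.86 and 16.56 in the cerebella of KO 1 to 4 and 5.11, 5.05, 5.36 and 5.21 in their hippocampi. The lowest cerebellum value, that of KO 3, was still far above every hippocampus, and the hippocampus values lay below 6.96, the 25th percentile of the deposited values. Gabra6 was higher by 10.97 (SE 0.26, limma adjusted p = 2.65e-20) and by 11.40 without cerebellum KO 3. Cbln3, a secreted partner of cerebellin 1 in granule cells, read 15.63, 15.76, 14.14 and 15.65 against 6.46, 6.94, 6.61 and 6.90. Its groups were likewise far apart, and it was higher by 8.57 (SE 0.23). All its hippocampus values also lay below 6.96, and whether such readings exceed background was not judged, so no fold is given for either gene. Car8, a carbonic anhydrase-related protein of Purkinje cells that binds the IP3 receptor, read 17.37, 17.62, 15.47 and 17.41 against 8.92, 9.16, 8.53 and 8.01. KO 3 was again lowest in cerebellum, without reaching the hippocampus values, and the difference was 8.31 (SE 0.32).

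Next came Cbln1, the organizer of parallel fibre synapses, at 16.05, 15.93, 14.64 and 16.33 in cerebellum and 8.93, 10.79, 7.81 and 8.65 in hippocampus (difference 6.69, SE 0.47). The hippocampus of KO 2 stood above its group, yet below every cerebellum. Pcp2, a modulator of G proteins in Purkinje cells, was higher by 6.49, Arhgef33, a guanine nucleotide exchange factor, by 6.39, Ppp1r17, a phosphatase inhibitor of Purkinje cells, by 6.27, and Fat2, a protocadherin of granule cells, by 5.81. All 8 of these genes separated the regions without overlap and were called without cerebellum KO 3 as well.

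Downward, the genes furthest apart were those of pyramidal neurons and their synapses. Ddn, which encodes the postsynaptic protein dendrin, read 7.23, 7.22, 7.07 and 8.01 in cerebellum and 14.24, 13.94, 14.49 and 14.64 in hippocampus. The arrays of each region lay close together, cerebellum KO 3 included, and Ddn was lower in cerebellum (-6.94, SE 0.18, limma adjusted p = 9.22e-20). Most of its cerebellum values lay only a little above 6.96, so no fold is given here either. Chrm1, the M1 muscarinic acetylcholine receptor, read 7.10, 7.16, 7.40 and 6.71 against 13.73, 13.11, 13.77 and 13.89, a difference of -6.53. Pde1a, a phosphodiesterase activated by calmodulin, read 7.93, 7.88, 9.76 and 7.29 against 14.36, 14.14, 14.20 and 14.45. Here cerebellum KO 3 was the highest of its group, and the difference was -6.07 with it and -6.59 without it. St6galnac5, a sialyltransferase of gangliosides, differed by -5.99, Lmo7 by -5.58, and the forebrain transcription factors Tbr1 and Neurod6 by -5.58 and -5.55.

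Gabra5, the GABA-A subunit of extrasynaptic receptors on hippocampal pyramidal cells, varied most among these genes. It read 10.52, 10.22, 13.17 and 9.13 in KO cerebellum and 16.16, 16.11, 16.35 and 16.46 in KO hippocampus. The cerebellum values were spread widely while the hippocampus values lay close together, and the groups did not overlap. The difference was -5.51 (SE 0.54) and -6.31 without cerebellum KO 3, against -7.39 in WT. Several of these readings exceed 16, the ceiling of a 16-bit scan on a log2 scale, so a fold is that of deposited values and its relation to the fold of RNA was not tested.

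**Figure D1:**
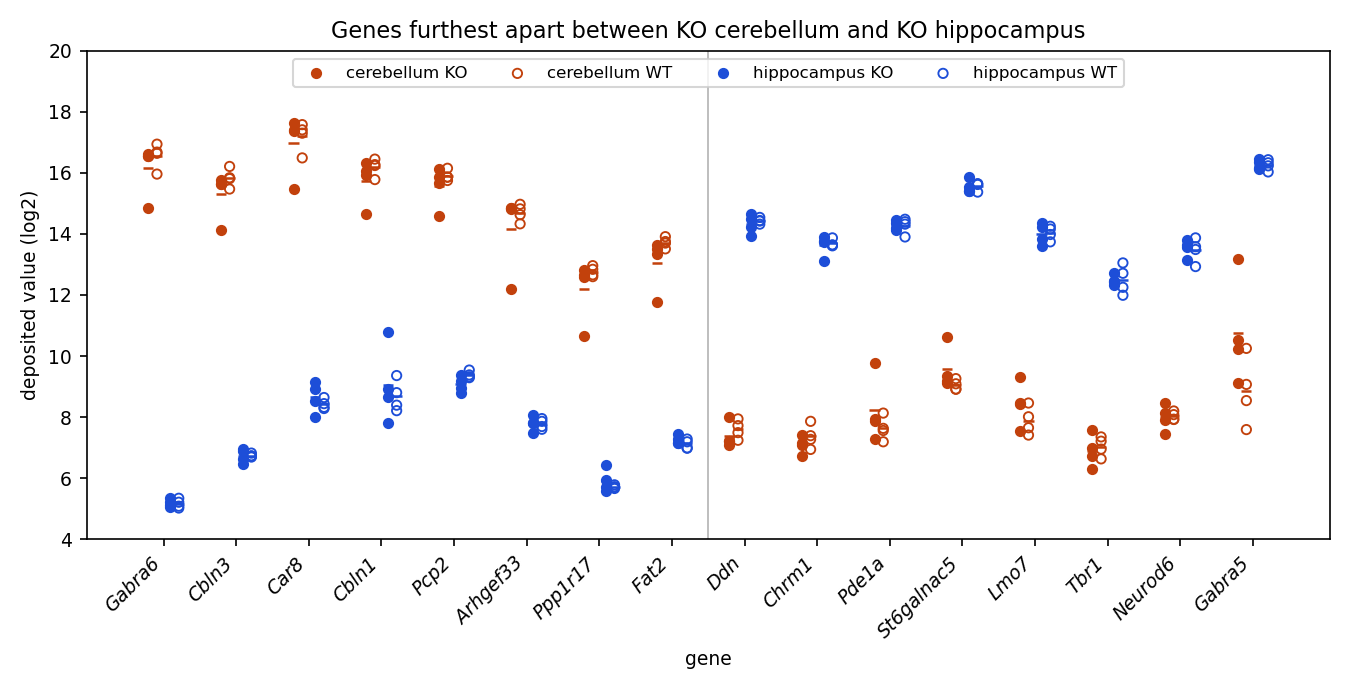
Deposited log2 value (vertical axis) of the 8 genes furthest higher and the 8 furthest lower in KO cerebellum, by array. Filled points are KO and open points WT arrays, orange for cerebellum and blue for hippocampus, and short lines are means of 4. Cerebellum and hippocampus do not overlap for any of the 16 genes in KO, and the outlying filled orange point of most genes is animal 3, as for Gabra6 at 14.86 and Gabra5 at 13.17.

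By this rule, most regional differences of WT mice held in the KO mice. WT cerebellum and hippocampus differed in 1924 rows (9.83%) by the same rule, 779 higher and 1145 lower in cerebellum. In KO, 588 of the 779 (75.5%) and 854 of the 1145 (74.6%) were called in the same direction, 1442 in all, and 0 were called in the opposite direction. Read from the KO side, the shared genes were 86.1% of those higher and 94.2% of those lower. With an ordinary paired test in each genotype, 1746 rows were called in WT and 612 in KO, and 552 held, 31.62% of the WT calls. Without cerebellum KO 3 the shared genes of the main rule numbered 682 (87.5% of the WT calls) and 974 (85.1%), 1656 in all. All 164 genes that differed at least 8-fold in KO, 71 higher and 93 lower, were called the same way in WT. Across the 19572 rows, KO and WT differences correlated with r = 0.949, and 0.965 without that array. This is across genes, which are not independent replicates, and the KO and WT arrays share no animal.

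The size of the regional contrast was also read in each KO animal. Over the 779 genes higher in WT cerebellum the median difference was 1.44 in KO 1, 1.37 in KO 2, 0.93 in KO 3 and 1.61 in KO 4. Over the 1145 lower genes it was -1.49, -1.47, -1.01 and -1.58. KO 3 thus had the smallest contrast both ways, and 148 of the 1924 genes had the opposite sign in it, against 2, 2 and 0 in the other animals. The WT animals, which chose these genes, ran from 1.35 to 1.68 and from -1.42 to -1.77. Of the 1442 shared genes, 1102 had the smaller difference in KO, and 860 did without cerebellum KO 3.

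The difference between genotypes was tested itself. The interaction (KO regional difference minus WT regional difference) was called for 0 of 19572 rows in limma, and 1033 rows (5.28%) had an unadjusted p under 0.05, the smallest adjusted p being 0.881. Without cerebellum KO 3, 580 rows had an unadjusted p under 0.05 in limma and the smallest adjusted p was 0.9999. Interaction values of single genes given here and below include that array. The median SE of an interaction was 0.19 over all rows and 0.37 for granule and Purkinje cell genes, and with such errors an interaction that misses the threshold does not show that the genotypes are alike. For Gabra6 the interaction was -0.43 (SE 0.37), for Cbln3 -0.53 (SE 0.32) and for Ddn -0.11.

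**Figure D2:**
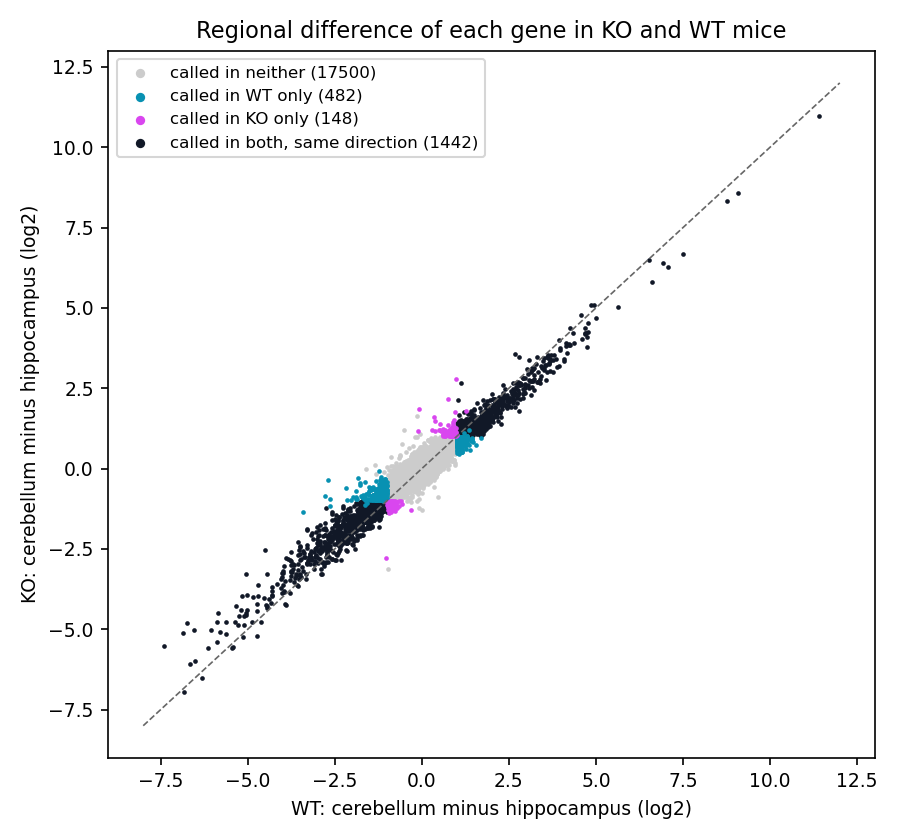
Cerebellum minus hippocampus (log2) of each of 19572 rows in WT (horizontal axis) and KO mice (vertical axis), coloured by where the row was called, with the line of equal differences dashed. The 1442 rows called in both genotypes lie along the line, with r = 0.949 over all rows. Among the 482 called in WT only and the 148 called in KO only, some lie well off it, such as Glra3 (-0.37 in KO, -2.70 in WT) and Chrna3 (1.86 and -0.07). The WT value of Chrna3 includes animal 4 at -1.60, apart from 0.80, -0.02 and 0.55 in animals 1 to 3.

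Of the 482 rows called in WT only, 191 higher and 291 lower, all 482 had the same sign in KO and 419 had an adjusted p under 0.05 there. In 476 the KO difference was under 2-fold, and in 6 it was larger but failed the p. Their median size was 0.836 in KO and 1.133 in WT, an order set by how these rows were chosen. Without cerebellum KO 3, 221 of them were called. Meis2, a homeobox factor, had the largest WT difference among those not called in KO. It read 11.31, 11.56, 13.83 and 10.34 in KO cerebellum and 13.15, 12.98, 13.19 and 13.07 in KO hippocampus, so that the groups overlapped through animal 3. The difference was -1.34 in KO (limma adjusted p = 0.099), -2.03 without cerebellum KO 3 (0.0044) and -3.41 in WT, with an unadjusted interaction p of 0.0229.

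Tac1, the precursor of substance P, differed by -0.84 in KO and -2.78 in WT, and Glra3, a glycine receptor subunit, by -0.37 and -2.70. Glra3 read 8.59, 8.37, 10.12 and 7.27 in KO cerebellum against 5.71, 6.51, 8.0 and 5.97 in WT cerebellum. Its hippocampus values were 8.78, 10.37, 8.97 and 7.69 in KO, overlapping those of KO cerebellum. The unadjusted interaction p was 0.00879, with an adjusted p of 0.881. The transporter of cationic amino acids Slc7a3 (-1.17 in KO, -2.65 in WT) and the heparan sulphate enzyme Ndst4 (-0.94 and -2.65) followed. Of the genes higher in WT, Dnah6, an axonemal dynein, Dpysl4, a collapsin response mediator, and Ubtd2 differed by 0.96, 0.95 and 0.91 in KO and passed the fold at 1.21, 1.21 and 1.17 without cerebellum KO 3. The bitter taste receptor Tas2r143 (0.72 in KO, 1.55 in WT) and the meiotic cohesin Rec8 (0.83 and 1.47) stayed below 2-fold, at 0.89 and 0.91.

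Of the 148 rows called in KO only, 95 higher and 53 lower, 146 had the same sign in WT, 126 had an adjusted p under 0.05 there, and 107 were called without cerebellum KO 3. Their median size was 1.118 in KO and 0.874 in WT, an order again set by how the rows were chosen. Glra1, the adult glycine receptor subunit of brainstem and spinal cord, read 9.73, 9.78, 14.14 and 8.77 in KO cerebellum and 7.80, 9.73, 7.44 and 6.28 in KO hippocampus. The KO 3 value stood far above the rest, in the array whose brainstem genes were highest (mean 9.25), and the groups overlapped. The part of that tissue in the result was not tested. The difference was 2.79 (limma adjusted p = 0.0211) with that array and 1.62 (0.119) without it. The factor Tfap2d (2.17 in KO, 0.74 in WT), the nicotinic subunit Chrna3 (1.86 and -0.07), the enkephalin precursor Penk (1.79 and 1.28) and the vesicle protein Vamp1 (1.77 and 0.95) were called with and without it. Their interactions had unadjusted p-values of 0.0331, 0.0161, 0.592 and 0.068 in limma. For Chrna3 the WT differences by animal were 0.80, -0.02, 0.55 and -1.60. Its WT hippocampus values were 7.12, 8.01, 8.20 and 9.80, so its WT difference depends on animal 4.

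Downward, Kl, which encodes Klotho and is made by choroid plexus, read 6.85, 7.27, 11.21 and 7.09 in KO cerebellum and 13.17, 10.77, 9.88 and 9.70 in KO hippocampus. Cerebellum KO 3 lay inside the hippocampus range, and the difference was -2.78 with it and -3.81 without it. The mean of the choroid plexus genes was highest in the same arrays, cerebellum KO 3 (10.30) and hippocampus KO 1 (11.36), and its part in the result was not tested. The transferase Galnt17 (-1.38 in KO, -0.93 in WT), the thrombospondins Thbs3 (-1.35 and -0.90) and Thbs4 (-1.32 and -0.78), and Parvg (-1.29 and -0.89) followed. For Thbs3 the 4 cerebellum values were 7.25 to 7.58 and the 4 hippocampus values 8.56 to 8.88.

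For the gene lists that follow, the background over all rows was 8.12% called, 74.95% of WT calls held and 27.6% without overlap. List counts include cerebellum KO 3 unless stated, and counts that rose without it are given after the lists. Lists share members and are not independent of each other. Tbr1, Neurod6, Zic1, Tfap2b and Eomes stand on lists of cells and of transcription factors. Ddn, Camk2a and Nrgn stand on the CA pyramidal and the CaM kinase lists. Slc6a5 stands on the interneuron, glycine and brainstem lists. Granule and Purkinje cell genes were mostly called upward. Of 18 granule cell rows, 17 were higher in KO cerebellum and 0 lower, with a median of 2.93, against 0.00 over all rows and 3.32 for the same genes in WT. All 18 were called in WT and 17 held. The single one not called in KO was Tiam1 (0.54), named after its value was seen. Zic1, a zinc finger factor of granule cell precursors, read 17.12, 17.09, 16.03 and 17.31 against 12.65, 12.05, 11.73 and 10.76, a difference of 5.09 without overlap. By animal the granule cell median was 3.37, 3.19, 1.74 and 3.37, so that KO 3 was again lowest.

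Of 19 Purkinje cell rows (17 genes), 17 were higher and 0 lower, with a median of 2.54 in KO and 2.81 in WT. Beside Car8, Pcp2 and Ppp1r17, the glutamate transporter Slc1a6 of Purkinje spines was higher by 4.22 and phospholipase C Plcb4 by 3.82. All 16 Purkinje rows called in WT held in KO. Calb1, the calcium buffer of Purkinje cells and also of dentate granule cells, read 15.30, 15.25, 13.59 and 15.38 in KO cerebellum and 11.79, 12.52, 12.24 and 12.25 in KO hippocampus. It was therefore higher in cerebellum by 2.67, although it stood on the dentate list too.

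Of 13 rows of cerebellar interneurons and unipolar brush cells, 7 were higher and 1 lower, and 7 of 9 called in WT held. The upward ones included the factor Tfap2b (4.77), the unipolar brush cell factor Eomes (4.52), the calcium buffer parvalbumin, Pvalb (4.21), and the glycine transporter Slc6a5 (3.55). Eomes read 11.77, 12.02, 10.63 and 12.29 against 7.23, 6.91, 7.11 and 7.38, without overlap. Slc6a5 read 9.79, 10.46, 12.42 and 9.95 against 7.11, 7.07, 7.05 and 7.20, with KO 3 highest, and was higher by 2.96 without that array. The glutamate receptor Grm2 was the lower one (-2.15). Of 7 Bergmann glia rows, Gdf10, a growth factor of the TGF-beta family, was higher by 4.09 and Gria4 by 3.12, while Gria1 was lower (-1.35), and 3 of 4 called in WT held.

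Pyramidal neuron genes ran the other way. Of 19 CA pyramidal rows, 0 were higher and 17 lower in KO cerebellum, with a median of -2.31 in KO and -2.78 in WT, and all 17 rows called in WT held. Camk2a, the alpha subunit of CaM kinase II, read 13.40, 13.83, 13.73 and 12.80 in cerebellum and 18.14, 18.14, 18.28 and 18.29 in hippocampus. The regions did not overlap and the difference was -4.77 (SE 0.18). Nrgn, the calmodulin-binding protein neurogranin, read 11.47, 12.69, 13.03 and 11.37 against 16.34, 15.99, 16.52 and 16.81 and differed by -4.28, without overlap. By animal the median of the list was -2.57, -2.40, -2.98 and -3.09, with KO 3 between the others, and without cerebellum KO 3 the median of the fitted differences was -2.51.

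The dentate gyrus list gave 2 higher and 7 lower of 12 rows, and all 9 called in WT held. C1ql2, a synaptic organizer of mossy fibres, read 7.98, 7.84, 8.43 and 7.66 in cerebellum and 10.78, 10.69, 10.82 and 11.23 in hippocampus (difference -2.90). The desmosomal gene Dsp differed by -2.56, the channel Trpc6 by -2.36 and Npnt by -2.09, each of them higher in hippocampus. The 2 higher rows were Calb1 and Plk5 (1.52), the latter named after its value was seen. Prox1, the identity factor of dentate granule cells, read 12.01, 11.73, 11.03 and 11.97 in KO cerebellum against 12.52, 12.14, 12.76 and 12.86, a separation without overlap of -0.89 that did not reach 2-fold.

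**Figure D3:**
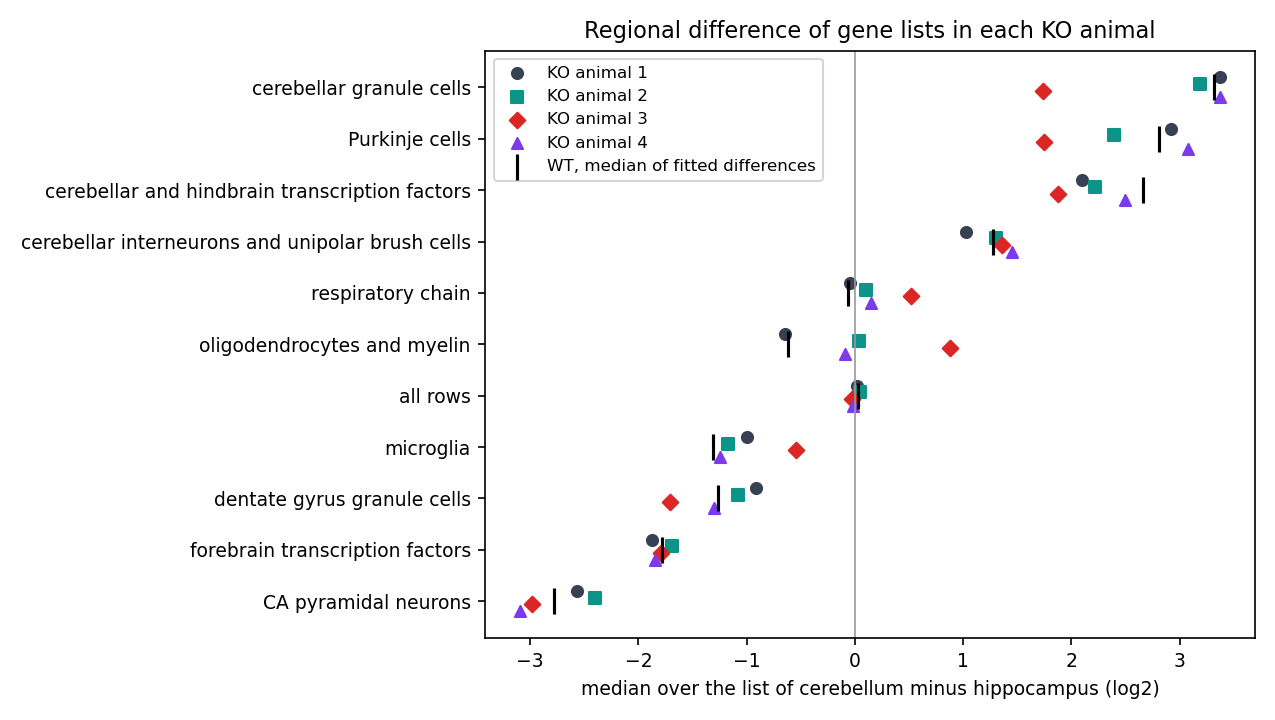
Median over each gene list of cerebellum minus hippocampus (log2, horizontal axis), with 1 symbol for each KO animal and a black bar for the median of the fitted WT differences. Granule cell genes lie at 3.37, 3.19, 1.74 and 3.37 in KO 1 to 4, CA pyramidal genes between -2.40 and -3.09, and all rows together near 0. Among the lists plotted, animal 3 is lowest for granule cell (1.74), Purkinje cell (1.75), cerebellar and hindbrain factor (1.88) and dentate genes (-1.71). It is highest for oligodendrocyte (0.88), respiratory chain (0.52) and microglia genes (-0.54).

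Transcription factors that divide forebrain from hindbrain, some of them on the cell lists too, separated the regions in the same way. Of 25 rows (23 genes) of forebrain factors, 0 were higher and 18 lower in KO cerebellum, with a median of -1.79 in KO and -1.78 in WT. Of the 18 rows called in WT, 16 held. Fezf2, which specifies deep cortical projection neurons, read 7.18, 7.14, 7.14 and 6.56 against 12.36, 11.95, 11.98 and 12.51, a difference of -5.20. Lhx2, a selector of cortical and hippocampal fate, read 7.91, 7.90, 8.49 and 7.47 against 11.92, 11.81, 11.85 and 12.44 (-4.06). Neither overlapped. Lmo3, a LIM-only cofactor, read 10.37, 9.21, 12.05 and 8.38 against 14.92, 15.02, 15.33 and 15.17. Its cerebellum values were scattered, with KO 3 highest, and the difference was -5.11 in KO and -6.86 in WT (unadjusted interaction p in limma = 0.0234, adjusted 0.881).

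Of 29 rows (27 genes) of cerebellar and hindbrain factors, 23 were higher and 0 lower, with a median of 2.14 in KO and 2.66 in WT. All 23 rows called in WT held. Mab21l1, a regulator of neural and eye development, read 12.70, 12.60, 11.51 and 12.52 against 7.11, 7.46, 6.84 and 7.55 and was higher by 5.10. Zic1 (5.09), Tfap2b (4.77), Eomes (4.52) and Barhl2 (4.03) followed. En2, a factor of the midbrain and hindbrain boundary, read 11.48, 11.45, 10.15 and 11.65 against 7.89, 7.74, 7.70 and 7.65, without overlap. Of 23 Hox rows, genes that pattern the more caudal hindbrain and spinal cord, limma called 0 and 1 had an unadjusted p under 0.05, against 39.1% of all rows, with differences from -0.24 to 0.39.

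GABA-A receptor subunits differed in both directions. Of 15 GABA-A receptor rows, 3 were higher and 6 lower in KO cerebellum, and all 9 rows called in WT held. Beside Gabra6, the delta subunit Gabrd, its partner in tonic receptors of granule cells, read 11.21, 11.08, 9.61 and 10.94 in cerebellum and 8.59, 8.49, 8.73 and 8.26 in hippocampus. The regions did not overlap and the difference was 2.19. Gabrb2 was higher by 1.01. Below Gabra5 in size came Gabrg3 (-2.45), Gabra4 (-2.42), Gabra2 (-2.20), Gabrb1 (-1.72) and Gabra3 (-1.24). Gabra3 read 10.65, 10.39, 12.11 and 10.03 in KO cerebellum and 12.05, 12.59, 11.87 and 11.62 in KO hippocampus, with KO 3 overlapping, and differed by -2.74 in WT (unadjusted interaction p in limma = 0.00277, adjusted 0.881).

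Of 15 rows for glycine receptors and for the synthesis and transport of glycine and GABA, 3 were higher: Slc6a5, Glra1 and the glial glycine transporter Slc6a9 (1.35). 0 were lower, with 8 rows past an adjusted p of 0.05 in either direction. Of the 4 rows called in WT, 2 held, and the others were Glra3 and Glra2 (-0.51 in KO, -1.77 in WT). Unadjusted interaction p-values under 0.05 were found for 5 of the 15 rows, against 5.28% of all rows, and none passed adjustment.

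Ionotropic glutamate receptors likewise differed both ways. Of 9 AMPA and kainate rows, 1 was higher and 3 were lower, and 4 of 7 called in WT held. Gria4, an AMPA subunit of granule cells and Bergmann glia, read 15.33, 15.29, 14.20 and 15.39 against 12.13, 12.50, 11.69 and 11.42, a difference of 3.12 without overlap. Grik5 (-1.92), Grik4 (-1.86) and Gria1 (-1.35) were lower. Of 7 NMDA and delta rows, 1 was higher and 3 were lower, and 4 of 5 called in WT held. Grin2b, the NMDA subunit with slow decay that is typical of the forebrain, read 10.94, 10.71, 11.28 and 10.50 in cerebellum and 15.64, 15.69, 15.72 and 15.82 in hippocampus. These values were tightly grouped, and the difference was -4.86 (SE 0.14, limma adjusted p = 1.15e-18). Grin2c, the subunit of mature granule cells, read 12.97, 12.55, 10.99 and 12.57 against 9.82, 9.87, 9.94 and 9.95. It was higher by 2.38, and by 2.80 without cerebellum KO 3. Grin2a (-1.81) and the delta receptor Grid1 (-1.47) were lower.

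Among 6 metabotropic glutamate receptor rows, Grm4, the presynaptic receptor of parallel fibres, was higher and Grm5, Grm2 and Grm7 were lower, and 4 of 5 called in WT held. Grm4 read 15.50, 14.89, 13.39 and 15.51 against 10.77, 10.67, 10.54 and 10.37, a difference of 4.23. Grm5 read 9.59, 9.76, 11.12 and 9.09 against 13.46, 13.44, 13.55 and 13.61, a difference of -3.63 in KO and -4.71 in WT. Neither overlapped, and the unadjusted interaction p of Grm5 was 0.00974 (adjusted 0.881). Of 8 cerebellin and C1q-like rows, Cbln1 and Cbln3 were higher, and C1ql3 (-3.49), C1ql2 (-2.90) and Cbln4 (-1.56) lower, and 5 of 6 called in WT held. By animal the median of that list was -0.57, -1.12, 1.09 and -1.05, with KO 3 alone above 0.

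**Figure D4:**
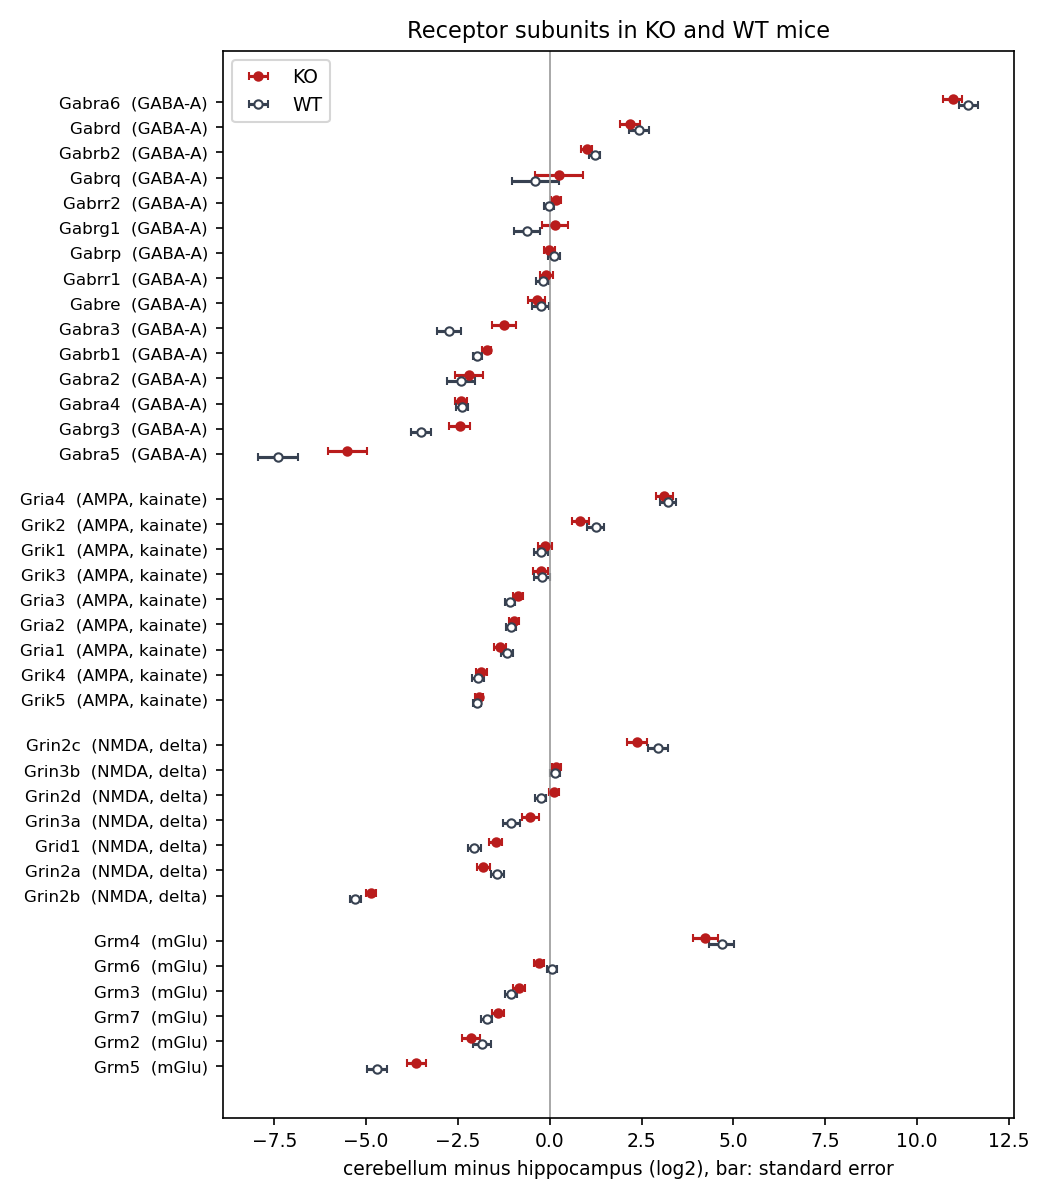
Fitted difference between cerebellum and hippocampus (log2, horizontal axis, bars are standard errors of the fit, n = 4 arrays per group) of GABA-A, AMPA and kainate, NMDA and delta, and metabotropic glutamate receptor genes in KO (filled) and WT (open). The order within each family runs from Gabra6 (10.97), Gria4 (3.12), Grin2c (2.38) and Grm4 (4.23) down to Gabra5 (-5.51), Grik5 (-1.92), Grin2b (-4.86) and Grm5 (-3.63) in KO.

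Of 22 rows for scaffolds and CaM kinases, 3 were higher and 11 lower in KO cerebellum, with a median of -0.95, and 14 of 15 rows called in WT held. After Ddn came Camkv (-5.07), a kinase-like partner of calmodulin, Camk2a, Nrgn and the adhesion molecule Icam5 (-3.66). The 3 higher rows were Camk4 (2.64), a nuclear kinase of granule cells, Homer3 (2.04), a scaffold of Purkinje spines, and Camk2d (2.04), all named after their values were seen. Camk4 read 12.86, 12.77, 10.98 and 12.89 against 9.86, 9.62, 9.83 and 9.65, without overlap.

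Ammonia and glutamine handling was examined because the liver deletion concerns it. Astrocytes of the brain detoxify ammonia by making glutamine, which neurons take up and turn back into glutamate and GABA. Of 22 rows for enzymes of ammonia, glutamine and glutamate metabolism, limma called 0 at 2-fold, 5 passed an adjusted p of 0.05 and 8 an unadjusted p of 0.05, against 31.3% and 39.1% of all rows. Differences ran from -0.76 to 0.34 with a median of 0.02. Prodh, proline dehydrogenase, which feeds proline into glutamate, was among the genes of smallest interaction p. It read 9.78, 9.82, 9.72 and 9.77 in KO cerebellum and 10.38, 10.08, 10.20 and 10.24 in KO hippocampus, without overlap. In WT it read 9.96, 10.11, 9.82 and 9.93 against 9.74, 9.95, 9.98 and 9.81, which overlap. The difference was -0.45 in KO and 0.08 in WT, an interaction of -0.53 (SE 0.13) with an unadjusted p of 0.000294 in limma and an adjusted p of 0.881.

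Of 18 rows for transporters of glutamine and neutral amino acids, 2 were higher and 2 lower, and the 3 called in WT held. Slc38a1, a glutamine carrier of neurons, read 16.43, 16.48, 16.16 and 16.57 against 15.05, 15.10, 14.90 and 14.73 and was higher by 1.47 without overlap. Slc38a2, its close relative, was higher by 1.01, and by 0.96 without cerebellum KO 3, which is below 2-fold. The cystine and glutamate exchanger Slc7a11 (-1.33) and the serine transporter Slc1a4 (-1.06) were lower. Of 8 glutamate transporter rows, Slc1a6 was higher and the neuronal Slc1a1 (-1.94), the vesicular Slc17a7 (-1.64) and the astrocytic Slc1a2 (-1.52) were lower, and 4 of 5 called in WT held. Slc1a2, the main carrier of glutamate uptake in forebrain, read 15.01, 15.17, 15.72 and 14.81 in cerebellum and 16.69, 16.74, 16.58 and 16.76 in hippocampus, without overlap.

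Of 45 potassium channel rows, 10 were higher and 13 lower in KO cerebellum, and 22 of 24 called in WT held. Kcnj12, an inward rectifier, read 12.04, 12.47, 10.92 and 12.35 against 9.40, 9.62, 9.03 and 8.56 (2.79). Kcnt2, a sodium-activated channel, read 7.08, 6.79, 7.95 and 6.41 against 11.61, 11.68, 11.65 and 11.65 (-4.59), followed by Kcnv1 (-3.85), Kcnq5 (-2.76) and Kcnj4 (-2.73). The regions overlapped for neither Kcnj12 nor Kcnt2. Kcnc2, a Kv3 channel of fast-spiking cells that was named after its values were seen, differed by -2.53 in KO and -4.50 in WT, with KO cerebellum values of 9.48, 9.57, 11.32 and 8.58 and WT cerebellum values of 6.53, 8.27, 9.21 and 7.64. Its unadjusted interaction p was 0.00287 (adjusted 0.881).

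Of 29 sodium, calcium and HCN channel rows, 7 were higher and 9 lower, and 15 of 16 called in WT held. The sodium channel subunit Scn3b read 9.62, 9.39, 11.51 and 8.40 against 14.42, 14.40, 14.56 and 14.70, a difference of -4.79 in KO and -6.75 in WT (unadjusted interaction p in limma = 0.00442, adjusted 0.881). The regions did not overlap, and the spread lay in cerebellum. Cacnb1 (-2.84), Scn3a (-2.76) and the AMPA receptor auxiliary subunits Cacng3 (-2.74) and Cacng8 (-2.60) followed. Of 32 rows of the vesicle release machinery, 8 were higher and 6 lower, and 13 of 16 called in WT held. Syt2, the fast calcium sensor of hindbrain synapses, read 13.81, 13.87, 13.53 and 13.79 against 9.75, 9.52, 9.07 and 9.20 (4.37), and Syt17 read 8.07, 8.12, 9.11 and 8.43 against 13.30, 12.91, 13.03 and 13.52 (-4.76). Neither overlapped. Unc13c, a priming factor, was higher by 2.83, and Syt16 was lower (-2.51).

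Of 29 rows for nitric oxide, cyclic nucleotide and calcium store signalling, 4 were higher and 9 lower, and 12 of 14 called in WT held. Phosphodiesterases lay at both ends: Pde1c read 13.22, 13.10, 11.80 and 13.28 against 8.93, 9.07, 9.45 and 8.61 (3.83), while Pde1a (-6.07) and Pde2a (-3.35) were lower. Plcb4 was higher by 3.82, and Rasgrp1, an activator of Ras, was lower (-3.93). Of 31 rows for monoamine, acetylcholine, adenosine and cannabinoid receptors, 2 were higher and 14 lower, with a median of -0.95, and 15 of 19 called in WT held. After Chrm1, Chrm4 read 7.62, 7.08, 7.86 and 7.61 against 10.34, 10.11, 10.80 and 10.86 (-2.98), without overlap. The dopamine receptor Drd5 (-2.36), Chrm5 (-2.21) and the serotonin receptor Htr4 (-2.19) followed. The 2 higher were Chrna3 and the cannabinoid receptor Cnr1 (1.12), the latter named after its value was seen.

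Of 20 neuropeptide rows, 1 was higher and 8 lower, and 7 of 8 called in WT held. Cck, the cholecystokinin precursor of hippocampal basket cells and pyramidal neurons, read 11.91, 12.68, 12.10 and 11.95 against 15.60, 15.27, 15.62 and 15.85 (-3.43), without overlap. Somatostatin, Sst, read 12.63, 13.87, 15.88 and 12.76 in KO cerebellum and 17.08, 16.84, 17.12 and 17.20 in KO hippocampus. The regions did not overlap, with KO 3 closest, and the difference was -3.28 in KO, -3.98 without that array and -5.05 in WT (unadjusted interaction p in limma = 0.0255, adjusted 0.881). Penk was the higher one. Its hippocampus values were 12.76, 12.76, 15.03 and 11.27, that of KO 3 above the lowest cerebellum value of 14.45.

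Of 21 rows (19 genes) for immediate early and clock genes, 2 were higher and 7 lower, and 9 of 10 called in WT held. Egr1, an activity-induced factor, read 11.05, 11.30, 11.98 and 11.53 against 13.54, 13.53, 13.60 and 13.99 (-2.20), and Arc differed by -2.08. Dusp1, an inducible phosphatase, read 14.65, 15.10, 15.03 and 15.12 against 13.64, 13.51, 13.48 and 13.30 (1.49). The regions overlapped for neither Egr1 nor Dusp1.

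Of 15 astrocyte rows, 3 were higher and 2 lower, and 5 of 6 called in WT held. The water channel Aqp4 read 14.79, 14.71, 14.88 and 14.87 against 13.14, 12.80, 13.13 and 12.83 (1.84) and S100b, a calcium-binding protein, ran from 11.82 to 12.52 with no hippocampus value above 10.32 (2.02), both without overlap. The bicarbonate cotransporter Slc4a4 was higher by 1.77. Gfap, the intermediate filament of astrocytes, read 11.70, 11.71, 13.45 and 11.65 in KO cerebellum and 13.25, 12.95, 13.40 and 13.29 in KO hippocampus. KO 3 lay inside the hippocampus range, and the difference was -1.09 with it and -1.54 without it.

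Of 13 microglia rows, 0 were higher and 6 lower, with a median of -0.96 in KO and -1.31 in WT, and 12 passed the adjusted p. Of 10 called in WT, 6 held, and 9 held without cerebellum KO 3, against 74.95% and 85.94% of WT calls over all rows. P2ry12, a purine receptor of resting microglia, read 9.83, 9.56, 10.95 and 9.72 against 12.09, 12.20, 12.23 and 12.28 (-2.19), without overlap. Csf1r (-1.46), Cx3cr1 (-1.35), Itgam (-1.14) and C1qb (-1.12) followed.

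Of 17 oligodendrocyte rows, 1 was lower, Opalin (-1.48), and the median was 0.01 in KO and -0.62 in WT. By animal the median was -0.65, 0.04, 0.88 and -0.09, and without cerebellum KO 3 it was -0.44. Opalin read 8.83, 8.63, 10.66 and 8.37 against 10.98, 10.35, 10.85 and 10.22, with KO 3 overlapping. Of 8 precursor rows, Gpr17 was lower (-1.16), and 1 of 3 called in WT held. Of 14 rows for endothelium and pericytes limma called 0, with 2 at an unadjusted p under 0.05, and of 23 respiratory chain rows 0, with 9 at that p and a median of 0.21. Of 15 chaperone rows 0 were called, with 3 at that p. Over all rows 39.1% had an unadjusted p under 0.05, so these shares lay near or below the background. For the respiratory chain 9 of 23 rows did not overlap, against 27.6% of all rows. Its interaction had an unadjusted p under 0.05 in limma in 6 of the 23, against 5.28% of all rows, and none passed adjustment. By animal its median was -0.05, 0.10, 0.52 and 0.15, and without cerebellum KO 3 the median of the fitted differences was 0.08. Of 15 antioxidant rows, the glutathione synthesis subunit Gclm was higher (1.17) and Slc7a11 lower, and 1 of 2 called in WT held. Over all rows 8.12% were called, and the oligodendrocyte, precursor and antioxidant lists lay near that share.

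Some genes of neighbouring tissue moved with single arrays. The mean over 12 choroid plexus and ependyma genes was 8.16, 8.15, 10.30 and 8.13 in KO cerebellum and 11.36, 9.68, 8.73 and 8.22 in KO hippocampus. Ttr, transthyretin of the choroid plexus, read 10.17, 9.66, 17.56 and 9.82 against 18.33, 17.15, 13.64 and 10.65, so the groups overlapped widely. It differed by -3.14 (limma adjusted p = 0.173), and by -5.06 (0.0104) without cerebellum KO 3. The list had 1 call, Kl, and its median by animal was -2.69, -0.87, 1.62 and -0.27. Of 12 meninges and collagen rows limma called 0, with 2 at an unadjusted p under 0.05, against 39.1% of all rows.

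Of 17 brainstem and spinal cord rows, 4 were higher: Slc6a5, Glra1, the serotonin transporter Slc6a4 (1.62) and dopamine beta-hydroxylase, Dbh (1.2). Slc6a4 read 7.21, 8.16, 12.36 and 8.39 against 7.56, 7.28, 7.28 and 7.53. Tph2, the enzyme of serotonin synthesis, read 5.38, 6.10, 10.35 and 6.25 against 5.99, 6.09, 5.88 and 5.78 and was not called (1.08). Both were high in cerebellum KO 3 alone, and without that array 1 of the 17 rows was called, Slc6a5. Of 16 thalamus and midbrain rows, 4 were higher, 3 of them probe sets of Rora and the other Calb2 (3.41), and Plekhg1 was lower (-1.01). Calb2 was high in every cerebellum, at 15.25, 15.02, 14.90 and 15.19 in KO and 15.30, 14.80, 15.43 and 15.65 in WT. The Rora probe set of difference 2.67 likewise read 14.71, 14.59, 13.43 and 14.74 in KO cerebellum and 14.85, 14.48, 14.54 and 14.89 in WT. The mean of the thalamus and midbrain list was 10.34, 10.58, 9.46 and 9.17 in KO hippocampus. Of 12 striatal rows Penk was higher, and Rgs9 (-1.63), Drd1 (-1.61) and Rasd2 (-1.28) were lower, with list means of 9.66, 9.82, 10.56 and 9.14 in KO hippocampus. Of 15 neocortex rows, 2 were higher and 7 lower, Tbr1 and Fezf2 first, and 8 of 10 called in WT held. Without cerebellum KO 3 more rows called in WT held on several lists. Bergmann glia reached 4, cerebellar interneurons 8, AMPA and kainate 5, cerebellins 6, glutamate transporters 5, and scaffolds and CaM kinases 15. Potassium channels reached 23, sodium, calcium and HCN channels 16, vesicle release 15, and monoamine and other receptors 17. Astrocytes reached 6, oligodendrocyte precursors 2 and neocortex 9. The differences of granule, Purkinje and pyramidal genes were as large or larger without cerebellum KO 3, with medians of 3.30, 2.83 and -2.51. The part of neighbouring tissue in these and the other differences was not tested.

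**Figure D5:**
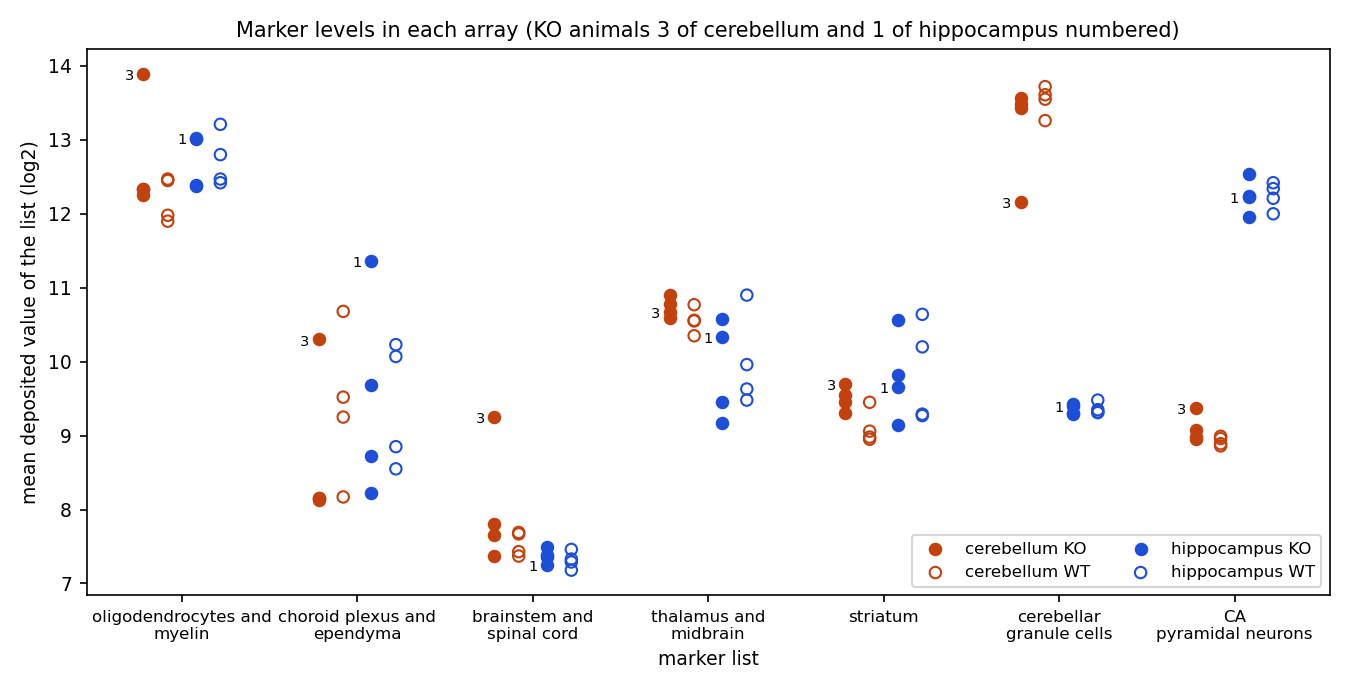
Mean deposited value (log2, vertical axis) of 7 marker lists in each array, orange for cerebellum, blue for hippocampus, filled for KO and open for WT. The numbered points are cerebellum KO 3 and hippocampus KO 1. Cerebellum KO 3 lies above its group for oligodendrocyte (13.89), choroid plexus (10.30) and brainstem genes (9.25) and below it for granule cell genes (12.16), and hippocampus KO 1 is highest of its group for choroid plexus genes (11.36).

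Prodh and Tas2r143, given above, were among the 8 genes of smallest interaction p. Of these genes, all but Prodh and Lix1 were weakly expressed, with group means below the array medians. Lix1 read 9.97, 10.10, 10.75 and 9.91 in KO cerebellum and 11.85, 11.89, 12.13 and 12.25 in KO hippocampus, and differed by -1.85 in KO and -2.78 in WT. The predicted gene Gm9881 differed by -0.68 and -0.11, the Toll-like receptor gene Tlr8 by -0.30 and 0.31, the claudin Cldn15 by -0.16 and 0.43, 2310009B15Rik by -0.21 and -0.97, and Gm10451 by 0.22 and -0.42. Unadjusted p-values of the 8 genes ran from 0.000283 to 0.00127, and the adjusted p was 0.881 for each.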

How the data were processed

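Total RNA of cortex, hippocampus and cerebellum was measured on 24 arrays, 1 per animal and region. The deposited log2 values were made by the authors with RMA, per the submitters' processing notes, which corrects background, normalizes arrays and summarizes probes. The labels name biotin, Cy3-labelled cRNA and single-stranded cDNA together, so the labelling chemistry is not settled. RMA compresses differences among dim probes, values ran from 3.89 to 19.14, and 236 of the tested rows exceeded 16 in at least 1 array.

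The values were used as deposited. Of 22206 rows, 19572 with a gene in the platform annotation entered a linear model of 6 group means over 24 arrays, with moderated statistics (limma 3.58.1, run under R 4.3.3). The animal, taken from genotype and number in the titles, was a random block (duplicateCorrelation, statmod 1.5.0, consensus correlation 0.00646, 18 residual and 6.9 prior degrees of freedom). P-values were 2-sided and adjusted by Benjamini-Hochberg over all rows, and measure the spread between animals. A call needed an adjusted p under 0.05 and 2-fold. Deviations of same-numbered arrays correlated at -0.041, -0.147, -0.037 and 0.297 in KO, so the numbers did not visibly pair the arrays.

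Members, gene lists and tests were chosen with earlier results of these data known. Genes named are the 8 of largest difference each way with 1 sign in all animals, up to 5 called members of each list with the largest difference (and family members that order a family), the 8 of smallest interaction p, the 5 each way called in 1 genotype only, and members of neighbouring tissue lists that move with single arrays. On simulated data for this comparison (19572 genes, 200 changed), recovery was counted by the adjusted p in limma alone, without the 2-fold minimum. By that p, limma recovered 59.2% of 1.5-fold, 92.8% of 2-fold, 99.2% of 4-fold and 100% of 8-fold changes, with 4.98% false calls. Simulated 1.5-fold and 2-fold changes had mean estimates of 0.58 and 1 on the log2 scale, where a call needs 1. The shares for these changes therefore do not hold for calls, and recovery under the full rule was not tested.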

Additional observations from a re-analysis of the deposited data

Results flagged for a closer look

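In groups of 4, a value is given here when its gap to the nearest other array, divided by the range of the group, exceeded Dixon's 95% critical value, which chance alone exceeds in about 1 of 20 groups. Here 124 groups were tested, many of them sharing arrays. In KO cerebellum it was the array of animal 3 each time. That array was lowest for the mean of granule cell genes (12.16), Purkinje cell genes (12.42), and hindbrain transcription factors (9.87). It was highest for cerebellins and C1q-like proteins (11.03), transporters of glutamine and neutral amino acids (12.32), astrocytes (13.52), oligodendrocytes (13.89), their precursors (11.33), microglia (9.46), endothelium and pericytes (11.36), choroid plexus (10.30) and the respiratory chain (13.54). The cause was not tested.

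Among single genes, animal 3 stood apart in the cerebellum minus hippocampus difference of Gabra6 (9.50), Tas2r143 (-0.09) and Neurod6 (-5.12). The other KO animals ran from 11.35 to 11.58 for Gabra6, from 0.93 to 1.03 for Tas2r143 and from -5.67 to -5.73 for Neurod6.

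For Tlr8 all 4 KO animals had lower values in cerebellum (mean -0.30) and all 4 WT animals higher ones, and for Gm10451 all 4 KO animals had higher values (mean 0.22) and all 4 WT animals lower ones. The interaction was tested in limma and had an adjusted p of 0.881 for both, and both genes read close to the lower end of the scale.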

How the results depend on the processing

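The counts depended most on the strictness of the fold and on the test used. With 1.5-fold in place of 2-fold, 1719 rows were higher and 1692 lower in KO cerebellum and 2985 held from WT, and with 4-fold the counts were 180, 287 and 446. Testing against 2-fold itself (treat in limma) gave 259, 426 and 658, and an ordinary paired test on 4 animals gave 204, 408 and 552. That test called 1746 rows in WT, of which 31.62% held, against 74.95% in the main setting, and the cause was not tested. Leaving out 1 array at a time gave 629 to 803 higher, 848 to 1053 lower and 1346 to 1656 held, the highest values without cerebellum KO 3. With both arrays of KO animal 3 left out there were 780 higher, 1055 lower and 1633 held.

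With the animal as a fixed replicate block the counts were 687, 906 and 1447, and with no replicate block 683, 907 and 1442. The other alternatives (16 arrays only, dim rows or rows above 16 left out, quantile normalization, median centring, a variance trend with robust fit, and rows averaged per symbol) gave 658 to 742 higher, 863 to 909 lower and 1386 to 1446 held. The interaction was called for 0 rows in each setting where it was fitted. No called gene among those named or on the lists changed sign under the alternatives that were run gene by gene. Detection above background was not judged, since scanner files were not used here, and 4 arrays per group limit the precision.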
